A study of Mus musculus with 24 samples.

Results

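BCAM low basal cells were compared with differentiated epithelial cells of the mouse trachea. The labels placed 8 libraries in the BCAM low subset and 8 in the differentiated subset, 16 of the 24 libraries in all, and the 8 libraries of BCAM high cells entered the model fits without being compared here. All groups were wild-type (WT) female C57BL/6 mice described as naive, and the labels give no allele, agent or age. Each library was made from 1000 sorted cells lysed in TCL buffer and amplified with the SmartSeq2 protocol for cell populations, and was read as pairs of 38 bp. In each subset replicates 1 to 5 belonged to batch 1 and replicates 6 to 8 to batch 2, and the labels do not say what a batch stands for. The labels name neither the sort gates nor the mice behind each library, so p-values measure the spread between these samples, which may be technical. The estimated counts of a library summed to 1824619 to 4440072, with a mean of 3305005 ± 934963 (SD, n = 8) for BCAM low and 2401705 ± 124229 (SD, n = 8) for differentiated cells.

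The tracheal surface is a pseudostratified epithelium. Basal cells sit on the basement membrane, hold it through hemidesmosomes and laminin receptors, and act as the progenitors of the secretory and ciliated cells above them. BCAM, the basal cell adhesion molecule, is a surface receptor for laminin. The thyroid and parathyroid glands lie against the trachea. Thyroid follicles make thyroglobulin (Tg), the precursor of thyroid hormone, while parathyroid chief cells secrete parathyroid hormone (Pth) and the interspersed C cells secrete calcitonin (Calca). Transcripts of these glands were therefore kept apart from those of the airway.

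Levels are given as CPM, counts scaled to the library total after edgeR's TMM factors. Fold changes are fitted log2 values of BCAM low minus differentiated with batch as a covariate, given with their standard error (SE). A gene is described as called, higher, lower, risen or fallen where the edgeR quasi-likelihood test gave a Benjamini-Hochberg adjusted p under 0.05.

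The labels were checked on defining markers first. Krt5, the keratin of basal cells, stood at 701 to 1122 CPM in the 8 BCAM low libraries. In the differentiated libraries Krt5 was 0 in 5 libraries and 1.58, 2.78 and 2.47 CPM in replicates 3, 4 and 8. Trp63, the transcription factor that maintains basal cells, ranged from 141 to 293 CPM in BCAM low. In differentiated cells Trp63 was 0.619 to 3.46 CPM in batch 1, and 19.2, 27.3 and 7.82 CPM in replicates 6 to 8. Both markers separated the subsets in every library, so the labels held for basal identity.

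Secretory markers held in 1 batch only. Scgb1a1, the club cell secretoglobin, was 67626 to 119720 CPM in the differentiated libraries of batch 1 and 236 to 1870 CPM in the BCAM low libraries of that batch. In batch 2 the differentiated replicates 6 to 8 had 4620, 1747 and 9772 CPM of Scgb1a1, and the BCAM low replicates had 8558, 6360 and 4776 CPM, so the subsets overlapped. In such bulk libraries fewer cells of a type and less RNA per cell cannot be told apart. The counts for the secretory, enzyme and cilium structure lists, and the values of several of their members, are therefore also given for each batch.

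Thyroid transcripts were present in each differentiated library. Genes of the thyroid follicle, parathyroid and C cell lists together took 1.62, 3.11, 1.30, 2.58, 1.98, 6.13, 11.1 and 4.79% of the counts in differentiated replicates 1 to 8. The same lists took 0.0122 to 0.0784% in the BCAM low libraries. Tg alone made up 1.15, 0.943, 1.00, 1.96, 1.81, 5.70, 10.5 and 4.44% of the counts of differentiated replicates 1 to 8. In each differentiated library of batch 2 the Tg share lay above that in all 5 of batch 1, so thyroid content and batch cannot be told apart within this subset.

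**Figure D1:**
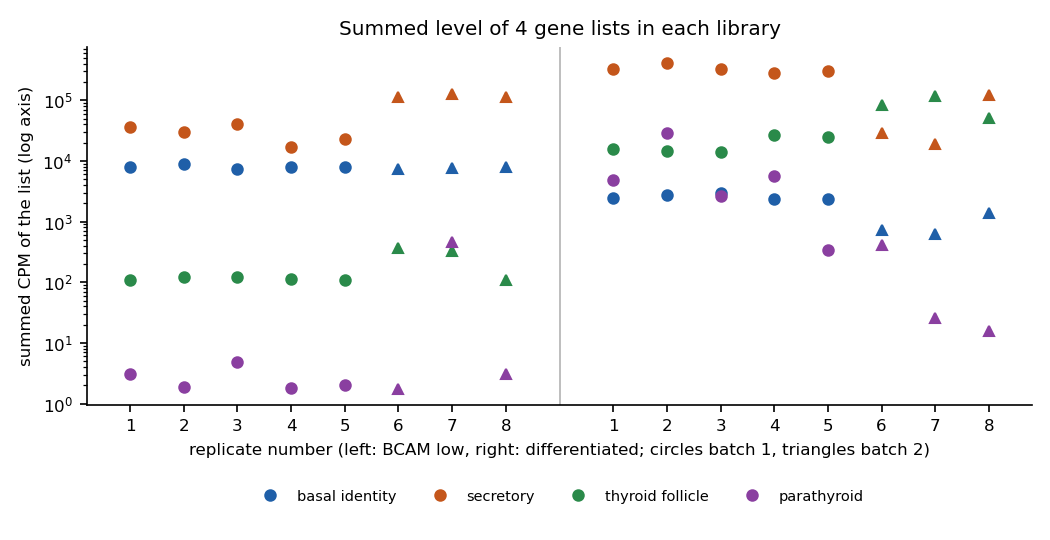
Summed CPM of the basal identity, secretory, thyroid follicle and parathyroid lists (log axis) in each BCAM low library (left) and each differentiated library (right), with circles for batch 1 and triangles for batch 2. The secretory sum is highest in the differentiated libraries of batch 1, the thyroid sum is higher in every differentiated library than in any BCAM low library, and the parathyroid sum of BCAM low replicate 7 reaches 458.2 CPM.

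Of 12211 genes tested, 4086 were called, which is 33.5% of those tested. Higher expression in BCAM low was found for 1996 genes (16.3% of those tested) and lower expression for 2090 genes (17.1%). A log2 change of at least 1 in size was found for 799 higher and 855 lower genes. The median over all genes tested was 0.02. On the log2(TPM + 0.1) scale the split was 4334 higher to 610 lower, and the median of all genes was 0.48; this scale kept 60.8% of the 4086 calls, and 371 of them had the opposite sign. In batch 2 alone, with 3 libraries a subset, 51 of the 155 called genes named here (not counting Icam1) missed the threshold with the same sign. A further 11 turned their sign. For 888 genes (7.27%) the 8 libraries of one subset lay entirely above the 8 of the other, 420 of them higher in BCAM low and 468 lower. Gene counts within each list below are to be read against these shares.

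All 12 tested basal identity genes were called higher, with a median log2 change of 4.21, against 0.02 for all genes. The count was 12 in batch 1 alone and 10 in batch 2 alone, where Krt14 missed the threshold (adjusted p = 0.062). Icam1, an adhesion receptor of the list, did not rise in batch 2 alone (-0.003, adjusted p = 0.99), after 1.28 in batch 1. The libraries of the subsets did not overlap for 11 of the 12. Krt5 rose by 9.95 ± 0.40 (SE; adjusted p = 1.2e-14). Trp63 rose by 4.90 ± 0.34 (adjusted p = 1.3e-10), and its rise was larger in batch 1 (6.21) than in batch 2 (3.84), with an adjusted p of 0.0026 for the difference.

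Krt17, a keratin of basal and injured epithelium, was 226 to 716 CPM in BCAM low and at most 2.82 CPM in differentiated cells. Krt14, which marks a primed basal state, was 10.7 to 45.2 CPM in BCAM low with 981 counts over the subset, against 2 counts over the 8 differentiated libraries. The ratio of pooled Krt14 counts, scaled to the library totals, was 274, with a 95% counting interval of 75.8 to 2269. Dlk2, a membrane protein related to the Notch ligands, was 37.5 to 86.3 CPM in BCAM low and had 3 counts over the differentiated libraries, a ratio of 290.5 (99.2 to 1410). These intervals cover counting error only.

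Krt15 was less restricted. Its level was 3126 to 3950 CPM in BCAM low and 1902 to 2413 CPM in the differentiated libraries of batch 1, falling to 266, 211 and 914 CPM in differentiated replicates 6 to 8. Krt15 rose by 0.68 in batch 1 alone and by 3.03 in batch 2 alone. Ngfr, a neurotrophin receptor long used to sort basal cells, was 69.5 to 138 CPM in BCAM low, 5.28 to 12.1 CPM in differentiated batch 1, and 0, 0 and 2.06 CPM in differentiated batch 2. It rose by 4.32 ± 0.42 (adjusted p = 4.4e-08).

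Further members followed the same direction. Aqp3, the basolateral water and glycerol channel, was 1349 to 2225 CPM in BCAM low against 29.0 to 171 CPM, a rise of 4.11 ± 0.25. Snai2, a zinc finger repressor of epithelial differentiation, rose by 3.57 and Pdpn, podoplanin, by 1.89. Egfr, the receptor for epidermal growth factor, was 42.8 to 90.5 CPM in BCAM low and 23.0 to 37.5 CPM in differentiated cells, with no overlap and a rise of 1.25 ± 0.13 (adjusted p = 2.3e-08). The call for Egfr ended with transcript length offsets, at 0.50 (adjusted p = 0.29), and on log2(TPM + 0.1), at 0.99 (adjusted p = 0.051).

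**Figure D2:**
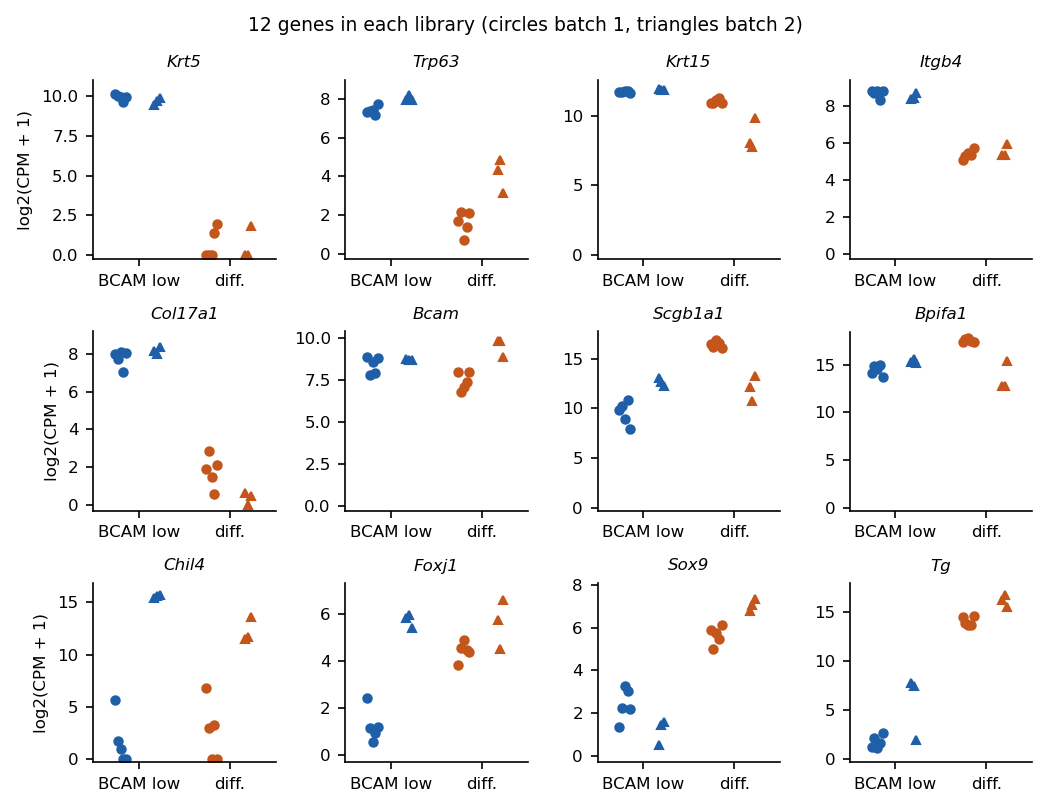
Expression of 12 genes as log2(CPM + 1) in each BCAM low library (blue) and each differentiated library (orange), with circles for batch 1 and triangles for batch 2. Krt5, Trp63, Itgb4 and Col17a1 separate the subsets in both batches, whereas Scgb1a1, Bpifa1, Foxj1 and Chil4 shift with batch.

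Hemidesmosome and laminin adhesion genes were higher as a group. Of 16 tested members, 11 were called higher and none lower, with a median of 1.17. In batch 1 alone 14 were called higher and none lower (median 1.52), and in batch 2 alone 7 higher and 1, Bcam, lower (median 0.44). Itgb4, the hemidesmosomal integrin beta chain, was 310 to 444 CPM in BCAM low and 32.8 to 60.9 CPM in differentiated cells. The subsets did not overlap for Itgb4, and its rise of 3.19 ± 0.13 (adjusted p = 3.8e-17) was 3.32 in batch 1 alone and 2.95 in batch 2 alone. Col17a1, the transmembrane collagen of the hemidesmosome, was 129.7 to 326 CPM against 0 to 6.34 CPM, a rise of 7.03 ± 0.39. Col7a1, the anchoring fibril collagen, was 54.3 to 73.1 CPM against 0 to 4.03 CPM and rose by 5.56 ± 0.27.

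The cytoskeletal linkers of the same structure moved in the same direction. Dst, which encodes the plakin that ties keratin to the hemidesmosome, rose by 2.87 and Plec, plectin, by 1.44. Of the laminin chains of the epithelial basement membrane, Lama3 rose by 2.75 and Lamb3 by 2.30. Integrin alpha chains were called higher too, Itga6 by 1.24 and Itga3 by 1.11, while the beta chain Itgb1 differed by 0.13 (adjusted p = 0.59). Neither alpha chain was called in batch 2 alone, with 0.14 for Itga6 (adjusted p = 0.74) and 0.48 for Itga3 (adjusted p = 0.13), after 1.90 and 1.48 in batch 1.

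Bcam itself was not called. Its level in BCAM low was 224 to 457 CPM in batch 1 and 403 to 430 CPM in batch 2. Differentiated cells had 109, 135, 163, 252 and 252 CPM of Bcam in batch 1 and 887, 907 and 458 CPM in batch 2. The fitted difference was 0.21 ± 0.29 (adjusted p = 0.61), and the batches taken alone gave a rise of 0.94 in batch 1 (adjusted p = 0.017) and -0.85 in batch 2 (adjusted p = 0.020). The difference between the batches was itself called (adjusted p = 0.0065). Bcam followed Tg across the 8 differentiated libraries (Pearson r = 0.98 on log2(CPM + 1), a description over libraries that also differ in batch), and the part of thyroid cells in its level was not tested.

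Caveolae and actomyosin genes were called higher for 6 of 12 tested members and lower for 1, with a median of 1.17. Cav1, the main coat protein of caveolae, was 549 to 895 CPM in BCAM low batch 1 and 113 to 137 CPM in batch 2, against 146 to 297 CPM and 30.5 to 86.0 CPM in differentiated cells. Cav1 was thus lower in batch 2 in both subsets, and its rise of 1.64 ± 0.19 held in each batch. Cavin1, its coat partner, rose by 1.26, Cavin3 by 1.70 and Cav2 by 1.07; in batch 2 alone Cavin3 was not called (0.94, adjusted p = 0.18). Tpm2, a tropomyosin, was 6.18 to 15.4 CPM against at most 1.69 CPM and rose by 4.69 ± 0.45. Tagln2, an actin-binding protein, fell by 0.73. Acta2, the smooth muscle actin of myoepithelial cells, was 0 to 9.69 CPM in BCAM low with a log2 difference of 2.04 (adjusted p = 0.062), and was called without BCAM low replicate 7 or 8 or differentiated replicate 1 (adjusted p up to 0.039).

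Ligands and receptors of the Wnt pathway were mixed, with 6 of 18 tested members called higher, 1 lower and a median of 0.46. Wnt10a, a ligand, was 6.86 to 33.7 CPM in BCAM low and had no count in the 8 differentiated libraries. Against a floor of 3 counts over the subset it was at least 115-fold higher. Wnt4 was 76.8 to 157 CPM in BCAM low batch 1 against 9.28 to 21.1 CPM, and 55.7 to 69.2 CPM in batch 2 against 30.9 to 53.3 CPM. It rose by 1.77 ± 0.30, with 2.73 in batch 1 and 0.41 (adjusted p = 0.29) in batch 2. Wnt9a rose by 2.13, and of the Frizzled receptors Fzd10 rose by 3.49 and Fzd8 by 1.57, the latter not called in batch 2 alone (1.16, adjusted p = 0.25). Wnt5a, a ligand of the non-canonical branch, fell by 2.53 ± 0.52 (adjusted p = 0.00034). Lgr6, a receptor for R-spondins, was level with the differentiated cells in batch 1 (229 to 301 against 192 to 290 CPM) and higher in batch 2 (229 to 357 against 20.5 to 74.5 CPM).

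Of 9 tested ligands, receptors and targets of the Notch pathway, through which neighbouring cells steer each other's fate, 4 were called higher and 1 lower, with a median of 1.13. Jag2, a ligand, was 105 to 176 CPM in BCAM low and 0 to 3.46 CPM in differentiated cells, with no overlap. Its rise of 5.95 ± 0.21 (adjusted p = 9.1e-19) was 5.93 in batch 1 alone and 5.97 in batch 2 alone. Dll1 rose by 1.83 and Jag1 by 1.13, with Dll1 not called in batch 2 alone (1.02, adjusted p = 0.18). Of the receptors, Notch1 rose by 1.67 ± 0.19 and Notch2 fell by 0.91 ± 0.14 in the pooled fit. Neither was called in batch 2 alone, with 0.74 (adjusted p = 0.067) for Notch1 and -0.22 (adjusted p = 0.52) for Notch2. The call for Notch1 also ended with transcript length offsets (0.52, adjusted p = 0.29), and that for Notch2 on log2(TPM + 0.1). Notch2 was 88.0 to 117 CPM in BCAM low against 205 to 250 CPM in differentiated batch 1, but against 85.9, 147 and 124 CPM in differentiated batch 2.

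Among EGF and IGF signalling genes 4 of 13 tested members were called higher and 1 lower, with a median of 0.34. Egfr, counted among the higher ones, also belongs to the basal identity list. Igfbp7, a secreted IGF-binding protein, rose by 2.72 and Igfbp3 by 1.06. Hbegf, a ligand of the EGF receptor, rose by 0.60, and this was 0.90 in batch 1 alone and 0.06 (adjusted p = 0.88) in batch 2 alone. Btc, betacellulin, another ligand of that receptor, fell by 1.41, a call that ended with transcript length offsets (-1.23, adjusted p = 0.065).

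Other keratins were mixed. Of 8 tested simple epithelial and suprabasal keratins 5 were called higher and 1 lower, with a median of 0.61. In batch 1 alone 4 were higher and 3 lower (median 0.36), and in batch 2 alone 2 were higher and none lower (median 1.25). Krt13 and Krt4, which mark the stratified hillocks of the trachea, rose by 3.34 ± 0.60 and 1.49 ± 0.36. Krt13 was 155 to 237 CPM in BCAM low batch 1 and 9.43 to 27.2 CPM in batch 2, against 2.88 to 36.0 CPM and 0 to 4.11 CPM in differentiated cells. Krt6a rose by 5.35, Krt7 by 0.63 and Krt19 by 0.58 (adjusted p = 0.046). Leaving out BCAM low replicate 3, 6, 7 or 8 or differentiated replicate 5, 6, 7 or 8 ended the call for Krt19, with adjusted p-values of 0.0581 to 0.0882. Krt19 was 0.07 (adjusted p = 0.63) in batch 1 alone and 1.62 in batch 2 alone.

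Krt18, the simple epithelial keratin of luminal cells, fell by 0.67 (adjusted p = 0.010). It was 358 to 657 CPM in BCAM low batch 1 against 890 to 1364 CPM, and 636 to 784 CPM in BCAM low batch 2 against 516 to 827 CPM. The lower level was thus limited to batch 1, with values of -1.10 there and 0.18 in batch 2.

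Hillock and squamous genes were called higher for 9 of 13 tested members and lower for 1, with a median of 1.49; Krt4 and Krt13 belong to both lists. Dapl1 was 54.5 to 158 CPM in BCAM low and at most 3.27 CPM in differentiated cells, a rise of 6.47 ± 0.27. Serpinb5, maspin, rose by 3.25, Sprr1a, a cornified envelope precursor, by 3.35, Ly6d by 2.13 and Serpinb2 by 1.79. In batch 1 alone 8 of 13 members were called higher and 1 lower (median 1.07). In batch 2 alone 5 of 13 were called higher and none lower (median 2.11). Not called there were Sprr1a (2.26, adjusted p = 0.17), Serpinb2 (2.28, adjusted p = 0.087) and Krt13 (3.47, adjusted p = 0.12). Cldn3, a tight junction claudin, fell by 0.72, and was not called in batch 2 alone (-0.14, adjusted p = 0.75).

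**Figure D3:**
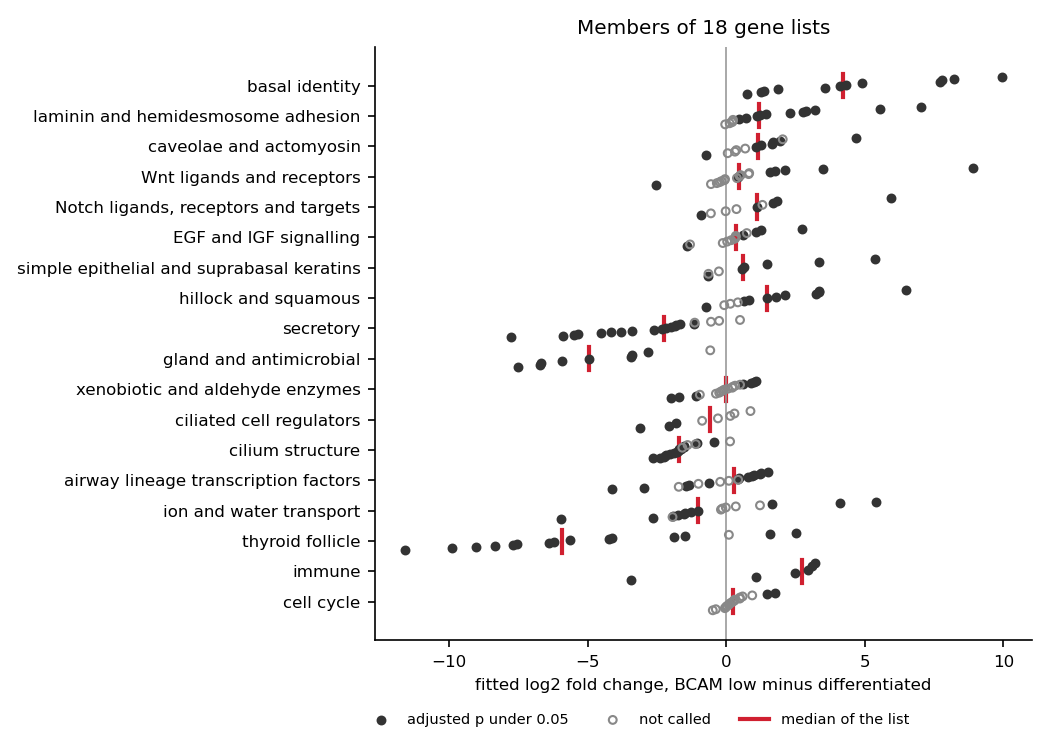
Fitted log2 fold change of each tested member of 18 gene lists, BCAM low minus differentiated, with filled points for called genes, open points for the rest and a red bar at the list's median. The basal identity median is 4.21, the secretory median -2.23 and the thyroid follicle median -5.93.

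Secretory genes were lower in the pooled fit, with 16 of 20 tested members called lower, none higher and a median of -2.23. The result was carried by batch 1, where 19 of 20 were called lower with a median of -3.44. In batch 2 alone 0 of 21 were called lower and 2 higher, with a median of -0.02. The difference between the batches was called for 15 of the 20 members, against 11.4% of all genes tested. Without differentiated replicates 6, 7 and 8 the count was 19 of 21 lower.

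Scgb1a1 fell by 4.50 ± 1.09 (adjusted p = 0.0044), a value made of -6.59 in batch 1 and 0.29 (adjusted p = 0.89) in batch 2. Bpifa1, an abundant secreted airway defence protein, was 164800 to 228560 CPM in differentiated batch 1 against 13405 to 31843 CPM in BCAM low. In batch 2 it was 6909, 7157 and 42395 CPM against 38225, 49341 and 37742 CPM, and the values by batch were -3.05 and 1.16. Bpifb1 was 5.10 to 55.8 CPM in BCAM low batch 1 and 1482 to 1868 CPM in BCAM low batch 2, so the basal subset itself differed between batches. Scgb3a2 was not called in the pooled fit (-1.14, adjusted p = 0.078), but was without differentiated replicate 6 or 7 (adjusted p up to 0.0165).

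Several secretory genes kept their direction in both batches, some of them near 0 in batch 2 alone, such as Bpifb1 (-0.02) and Pigr (-0.22). Others, such as Scgb1a1 and Bpifa1, turned. Lcn2, also a member of the gland list, was -4.37 in batch 1 alone and -2.35 (adjusted p = 0.051) in batch 2 alone. Tff2, a trefoil peptide of mucous cells, was 0 to 10.6 CPM in BCAM low and 11.9 to 2173 CPM in differentiated cells, with no overlap, and fell by 7.75 ± 0.90. Scgb3a1, a second secretoglobin, was 17.1 to 517 CPM against 1796 to 17163 CPM, also with no overlap, and fell by 5.87 ± 0.80. For both the batch 2 values alone missed the threshold, at -6.46 (adjusted p = 0.058) for Tff2 and -4.42 (adjusted p = 0.051) for Scgb3a1. Muc5b, the main gel-forming mucin, was 0.255 to 74.3 CPM in BCAM low batch 1, 412 to 725 CPM in batch 2 and 625 to 5382 CPM in differentiated cells. It fell by 5.33, with -7.38 in batch 1 alone and -2.12 (adjusted p = 0.19) in batch 2 alone.

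Chil4, a chitinase-like protein, shifted with batch in both subsets. It was 2.27, 0.946, 0, 0 and 49.0 CPM in BCAM low batch 1 and 44335, 50917 and 51563 CPM in BCAM low batch 2. Differentiated cells had 0 to 110 CPM in batch 1 and 2790, 3291 and 11983 CPM in batch 2. Both subsets were thus high in batch 2, and the pooled difference of 0.50 ± 1.54 was not called (adjusted p = 0.83). Chil4 has near-identical relatives in the mouse, among which reads may have been split.

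Gland and antimicrobial genes were called lower for 8 of 9 tested members, with a median of -4.94. Ltf, lactoferrin, was 1949 to 11634 CPM in BCAM low and fell by 2.83, and Lyz2, a lysozyme, fell by 3.42. Dmbt1, a secreted scavenger protein, was 0 to 121 CPM in BCAM low and 91.8 to 5898 CPM in differentiated cells, and fell by 6.73. Dcpp3 fell by 7.51 and Lyz1 by 5.91; both have close paralogs, so their split of reads is uncertain. In batch 1 alone all 7 tested members were called lower (median -4.37). In batch 2 alone, with 3 libraries a subset, none of 9 was called, though the median was -4.23. Values there included -6.77 for Lyz1 (adjusted p = 0.21), -5.60 for Dmbt1 (adjusted p = 0.093) and 0.72 for Wfdc2 (adjusted p = 0.46). Ltf was -3.74 in batch 1 and -1.29 (adjusted p = 0.45) in batch 2, and Lyz2 -4.35 and -2.13 (adjusted p = 0.15).

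Xenobiotic and aldehyde enzymes went opposite ways in the batches. In the pooled fit 4 of 18 were called higher and 3 lower, with a median of -0.01. In batch 1 alone 13 were lower and 3 higher (median -0.70), and in batch 2 alone 9 were higher and none lower (median 1.79). The difference between the batches was called for 17 of the 18, against 11.4% of all genes tested. Cyp2f2, the club cell cytochrome P450, was 18160 to 27004 CPM in BCAM low batch 1 against 25986 to 38258 CPM, and 13514 to 15822 CPM in batch 2 against 1400 to 8606 CPM. Both subsets were lower in batch 2, the differentiated one by more.

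Cyp2a5 fell by 1.99 in the pooled fit (adjusted p = 0.024), with -3.19 in batch 1 and 1.62 (adjusted p = 0.16) in batch 2. The call was lost without BCAM low replicate 2, 3, 4 or 5, with adjusted p-values up to 0.0544. Gstm1 and Gstm2, glutathione transferases, rose by 0.90 and 0.99, and Ephx1, an epoxide hydrolase, by 0.59. Aldh3a1, an aldehyde dehydrogenase, was 350 to 551 CPM in every BCAM low library, against 546 to 809 CPM in differentiated batch 1 and 29.4, 33.3 and 116 CPM in differentiated batch 2.

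Ciliated cell genes were lower in the pooled fit. Foxj1, the master regulator of motile cilia, was 0.473 to 4.43 CPM in BCAM low batch 1 and 13.1 to 28.5 CPM in differentiated batch 1. In batch 2 it was 55.6, 61.7 and 41.9 CPM in BCAM low and 53.1, 21.8 and 96.7 CPM in differentiated cells, so the subsets overlapped there. The pooled fall was 1.81 ± 0.51 (adjusted p = 0.0083), with -3.61 in batch 1 and -0.10 in batch 2. Deup1, which builds the deuterosomes that amplify centrioles, fell by 3.10 ± 0.82, with -0.63 (adjusted p = 0.62) in batch 2 alone.

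Of 20 tested genes of cilium structure 16 were called lower and none higher, with a median of -1.71. In batch 1 alone 19 of 21 were lower (median -2.83), and in batch 2 alone 1 of 21, Tekt1 (median -0.58). Tekt1, a tektin of the axoneme, was 0, 0, 0, 1.02 and 3.10 CPM in BCAM low batch 1 and 35.7, 15.0 and 13.1 CPM in batch 2, against 7.39 to 63.0 CPM in differentiated cells. It fell by 2.64 ± 0.70 (adjusted p = 0.0057). The dynein arm genes Dnah5 and Dnaic1 fell by 2.24 and 2.38, and Dynlrb2, a dynein light chain, by 2.20. None of the 3 was called in batch 2 alone, with -0.35 (adjusted p = 0.67) for Dnah5, -0.64 (adjusted p = 0.56) for Dnaic1 and -0.93 (adjusted p = 0.33) for Dynlrb2. The radial spoke gene Rsph1 fell by 1.62 (adjusted p = 0.036), a call lost without any 1 of BCAM low replicates 1 to 5 or differentiated replicates 1, 2, 3, 6 and 8, with adjusted p-values up to 0.0756.

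RFX transcription factors bind the X-box, a motif of ciliary promoters whose core reads GTTGCC, or GGCAAC on the other strand. The following stretches from the 250 bases before the start of called ciliary genes show where those letters lie. They are from RefSeq (GRCm38.p6, a build other than the one the submitters name), 5′ to 3′ on the gene's strand, with the core in capitals.
Dnaic2: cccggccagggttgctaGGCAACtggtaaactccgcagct
Dynlrb2: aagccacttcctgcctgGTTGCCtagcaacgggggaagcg
Tekt1: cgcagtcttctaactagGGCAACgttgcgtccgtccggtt
Hydin: cactctgcggttgctgtGGCAACagatggt
Sntn: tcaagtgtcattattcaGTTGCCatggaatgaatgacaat
Deup1: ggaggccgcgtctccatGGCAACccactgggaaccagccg

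The stretches lie at chr11:114727376-114727415 on the plus strand for Dnaic2, chr8:116504947-116504986 (plus) for Dynlrb2 and chr11:72361895-72361934 (minus) for Tekt1. Those of Hydin, Sntn and Deup1 lie at chr8:110266947-110266976 (plus), chr14:13670793-13670832 (plus) and chr9:15627903-15627942 (minus). The core on either strand was in 8 of the 19 cilium structure genes with a promoter in the table, in 4 of 10 ciliated cell regulators, in 1 of 13 secretory genes and in 0 of 8 basal identity genes. It was in 11.8% of all 27025 genes with a promoter in the table, and in 10.4% of the 32851 promoters of that length. A match describes the letters and does not show a bound site. Among these genes Dnaic2 fell by 2.03 (adjusted p = 0.041), Hydin by 1.52 (adjusted p = 0.037) and Sntn by 1.77 (adjusted p = 0.027), and each of the 3 calls was lost with single libraries left out. For Dnaic2 these were BCAM low replicates 1 to 5 and differentiated replicates 1, 2, 3 and 8 (adjusted p up to 0.125). For Hydin they were BCAM low replicates 1, 3, 4 and 8 and differentiated replicates 1, 2 and 8 (up to 0.112), and for Sntn BCAM low replicates 1, 3 and 5 and differentiated replicate 8 (up to 0.088).

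Transcription factors of the airway lineages moved both ways. Of 18 tested, 8 were called higher and 5 lower, with a median of 0.26. Sox9, a factor of glands and cartilage, was 0.441 to 8.75 CPM in BCAM low and 30.5 to 161 CPM in differentiated cells, with no overlap, and fell by 4.11 ± 0.41. Its level in differentiated cells was higher in batch 2 (107, 132 and 161 CPM) than in batch 1 and had r = 0.86 with Tg, so Sox9 lay outside the set apart for likeness to Tg. Creb3l1, a factor of secretory capacity, fell by 2.96 (in batch 2 alone -1.07, adjusted p = 0.41) and Xbp1, the factor of the unfolded protein response, by 1.45 ± 0.19. Spdef, the goblet cell factor, fell by 1.36, with -2.51 in batch 1 and 0.12 in batch 2.

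Higher factors included Sox21 (1.50 ± 0.27), Foxa1 (1.27 ± 0.19), Klf5 (1.22 ± 0.27) and Sox2 (0.99 ± 0.20), which marks the proximal airway. Foxa1 was 69.2 to 121 CPM in BCAM low and 11.9 to 52.2 CPM in differentiated cells, with no overlap.

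Ion and water transport genes were called higher for 3 of 17 tested members and lower for 8, with a median of -1.03. Aqp3, counted among the higher ones, also belongs to the basal identity list. In batch 1 alone 4 were higher and 11 lower (median -1.115). In batch 2 alone 4 were higher and 3 lower, and the median was above 0 (0.44). Clca2, an adhesion-associated regulator of chloride conductance, was 4.80 to 91.3 CPM in BCAM low and at most 2.56 CPM in differentiated cells, and rose by 5.42 ± 0.43. Slc12a2, the basolateral sodium, potassium and chloride cotransporter, was 16.6 to 30.9 CPM against 64.8 to 112 CPM, and its fall of 1.73 ± 0.18 was -1.85 and -1.50 in the batches taken alone. Scnn1b, a subunit of the epithelial sodium channel, was 0 to 5.73 CPM against 69.1 to 212 CPM and fell by 5.95 ± 0.36. Scnn1b also met the rule for likeness to Tg (r = 0.95), and the part of thyroid cells in its level was not tested. Slc26a9, an anion channel, fell by 2.64. The sodium channel subunit Scnn1g fell by 1.27 in the pooled fit and reversed to 0.44 in batch 2 alone.

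Defining markers of rare epithelial cells had few counts. None of the tuft cell markers Trpm5, Pou2f3 and Dclk1 was called; Trpm5 and Pou2f3 were too low to be tested. Trpm5 was 37.1 CPM in BCAM low replicate 2 and 0 to 8.92 CPM in the other BCAM low libraries. Dclk1 differed by -1.46 (adjusted p = 0.087), and was called without BCAM low replicate 2 (-2.33, adjusted p = 0.0040). Of the ionocyte list 5 genes were tested, with 1 called higher, 3 lower and a median of -2.0, while its defining markers Foxi1, Ascl3 and Cftr were too low to be tested. Foxi1 was 0 to 2.84 CPM in BCAM low and 0 to 13.2 CPM in differentiated cells. The neuroendocrine markers Insm1 and Syp stayed at or under 2.52 CPM in all 16 libraries, and the 4 tested genes of that list, all called lower, include Chga, Scg5 and Grp, which also belong to the C cell or parathyroid lists.

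Markers of other cells were checked in the same fit. Of 6 tested immune genes 5 were called higher in BCAM low and 1, Lyz2, lower. In batch 1 alone 5 of 7 were called higher and 1 lower, and in batch 2 alone none of 3 was called. Laptm5 was 7.55 to 42.3 CPM in BCAM low batch 1 and 2.02 to 4.41 CPM in batch 2, against 0 to 6.11 CPM in differentiated cells, and rose by 3.09 ± 0.62. Tyrobp rose by 2.50, Fcer1g by 2.95 and Coro1a by 3.21, while Ptprc, too low to be tested, was 0.236 to 8.01 CPM against 0 to 3.17 CPM. In batch 2 alone Laptm5 was not called (2.23, adjusted p = 0.18), and Tyrobp, Fcer1g and Coro1a did not reach the filter for testing. The call for Tyrobp was also lost without differentiated replicates 6, 7 and 8 (2.09, adjusted p = 0.053). The class II genes H2-Eb1 and H2-Aa, which present antigen in dendritic cells and macrophages, rose by 2.00 and 1.72 in the pooled fit. Their values in batch 2 alone were 0.28 (adjusted p = 0.90) for H2-Eb1 and -0.34 (adjusted p = 0.84) for H2-Aa. The summed immune list was 448.7 to 1997 CPM in BCAM low and 1244 to 25222 CPM in differentiated cells, where Lyz2 made up most of it. The part of immune cells in any of these results was not tested.

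Of 5 tested fibroblast genes only Dcn, decorin, was called, with a rise of 6.48 ± 0.40. Dcn was 231 to 372 CPM in BCAM low batch 1, 61.8 to 168 CPM in batch 2 and 0 to 7.10 CPM in differentiated cells. The defining fibroblast gene Col1a1 was 0.236 to 34.8 CPM in BCAM low against 0 to 51.8 CPM, with a difference of -1.04 (adjusted p = 0.47), and Pdgfra was at most 4.65 CPM in BCAM low. Endothelial Pecam1 differed by 0.64 (adjusted p = 0.18) and Cdh5 was at most 2.22 CPM. The muscle genes Myh11 and Des were too low to be tested. S100b fell by 3.14 ± 0.50. Hbb-bs, a haemoglobin chain chosen after its values were seen, reached 721 CPM in BCAM low replicate 2.

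Cell cycle genes differed little, with 2 of 17 tested called higher and none lower (median 0.23). Birc5 and Rrm2 rose by 1.76 (adjusted p = 0.030) and 1.49 (adjusted p = 0.033) at levels of at most 9.35 CPM. The call for Birc5 was lost without BCAM low replicate 2 or 6 or differentiated replicate 5, 7 or 8 (adjusted p up to 0.0663). That for Rrm2 was lost without BCAM low replicate 1, 6 or 8 or differentiated replicate 1, 3, 5 or 7 (up to 0.0801), and Mki67 was not called (0.94, adjusted p = 0.16). Of 10 tested antigen presentation genes, 2 were called higher and 3 lower. The class I genes B2m and H2-K1 fell by 1.04 ± 0.10 and 0.82 ± 0.12, and H2-D1 by 0.56. H2-K1 was -0.36 (adjusted p = 0.14) and H2-D1 -0.21 (adjusted p = 0.47) in batch 2 alone. With limma on log2(TPM + 0.1) H2-D1 was -0.004 (adjusted p = 0.98). B2m fell in both batches taken alone (-1.002 and -1.115), with 256 to 349 CPM in BCAM low against 532 to 677 CPM in batch 1, and 124 to 192 CPM against 315 to 372 CPM in batch 2. The 15 immediate early and stress genes had a median of 0.04, with 3 called higher and 1 lower.

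Outside the lists, 10 genes had the largest rises among those with more than 3 counts in each subset, a mean of 10 CPM or more, and a BCAM low value above the differentiated one at each of the 8 replicate numbers. Cd109, a surface protein of basal cells that binds TGF-beta, rose by 6.32 ± 0.40, from at most 1.24 CPM to 14.1 to 69.9 CPM. Abi3bp, an extracellular matrix protein, was 302 to 702 CPM against 0.427 to 20.2 CPM and rose by 6.27. Trim29, a regulator expressed in stratified epithelia, was 108 to 260 CPM against 0 to 7.64 CPM and rose by 5.73. Krt75 rose by 5.85, Papln, a matrix protein, by 5.79, and the beta-defensin Defb1 by 5.62. The others were Acaa1b (6.25), a peroxisomal thiolase, Ces2e (6.18), a carboxylesterase, Ifi202b (5.78), an interferon-induced gene, and Ggta1 (5.41), a galactosyltransferase. Acaa1b, Ces2e and Ifi202b belong to families of close copies, so their split of reads is uncertain.

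Genes with 3 counts or fewer over the differentiated libraries were led by Ccdc3. Ccdc3, which encodes a secreted protein, had 3354 counts over BCAM low and 1 count over differentiated cells, a ratio of 1876 with a counting interval of 336.5 to 74123. It was 41.9 to 165 CPM in BCAM low and 0.576 CPM in a single differentiated library. Vsnl1, a calcium sensor, had 568 counts against 3, a ratio of 106 (36.1 to 515).

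Thyroid follicle genes were set apart. Of 16 tested members 13 were called lower and 2 higher, with a median of -5.93. Tg was 14835, 13310, 12939, 24406, 23690, 79239, 112410 and 46826 CPM in differentiated replicates 1 to 8. In BCAM low Tg was 1.18 to 5.61 CPM in batch 1 and 221, 174 and 3.03 CPM in batch 2. It fell by 11.59 ± 1.12, with no overlap. Iyd, the iodotyrosine deiodinase, was 166 to 1026 CPM in differentiated cells and at most 4.85 CPM in BCAM low. Slc5a5, the iodide transporter, was 49.5 to 561 CPM against at most 3.97 CPM, and Pax8, the thyroid transcription factor, 114 to 731 CPM against at most 6.00 CPM.

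Per 1000 Tg CPM there were 9.12 to 15.5 CPM of Iyd, 6.01 to 9.84 CPM of Pax8, 5.5 to 10.9 CPM of Cdh16 and 1.83 to 3.59 CPM of Folr1 in the 8 differentiated libraries. Over the same libraries Pth per 1000 Tg ran from 0 to 1326. The hydrogen peroxide generator Duox1 and its maturation factor Duoxa1, which airway cells also use, went the other way from the 13 members called lower. The remaining tested member of the list was not called. Duox1 rose by 2.52 ± 0.65 (in batch 2 alone 0.66, adjusted p = 0.74) and Duoxa1 by 1.56 ± 0.49. Duoxa1 was 27.8 to 33.9 CPM in BCAM low batch 1 against 0 to 4.91 CPM, but 6.00 to 16.1 CPM in batch 2 against 8.64 to 16.6 CPM. Duoxa2 fell by 6.22.

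Parathyroid transcripts varied on their own. Pth was 2824, 17647, 1607, 3270, 186 and 234 CPM in differentiated replicates 1 to 6 and 0 in replicates 7 and 8. BCAM low replicate 7 had 264 CPM of Pth while the other BCAM low libraries had at most 0.505 CPM. Pth was not called over all libraries (-7.49 ± 3.28, adjusted p = 0.084). Without BCAM low replicate 7 the difference was -15.05 (adjusted p = 9.59e-06), and Pth was also called without differentiated replicate 7 or 8 (adjusted p up to 0.032). Chga, a secretory granule protein of parathyroid and other endocrine cells, was 192 CPM in the same library and at most 1.83 CPM in the other BCAM low libraries. It fell by 7.58 (adjusted p = 0.028), a call lost without any 1 of BCAM low replicates 1 to 5 (adjusted p up to 0.0807). Gcm2, the parathyroid transcription factor, was 41.5 CPM in differentiated replicate 2 and at most 0.882 CPM in BCAM low.

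Of the C cell markers, Calca was 2.06 to 216 CPM in differentiated cells with the highest value in replicate 5, and at most 2.75 CPM in BCAM low. Ret was at most 0.765 CPM in BCAM low and 2.22 to 29.0 CPM in differentiated cells. Neither reached the filter for testing. Grp had 2 counts over BCAM low and 2241 over differentiated cells, and Scg5 had 1 and 1072. Grp was higher in differentiated batch 2 (225, 340 and 161 CPM) than in batch 1 (50.1 to 91.6 CPM), the pattern of Tg rather than that of Calca. Npy, a neuropeptide, had no count in BCAM low and was at least 238-fold lower there against the same floor.

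**Figure D4:**
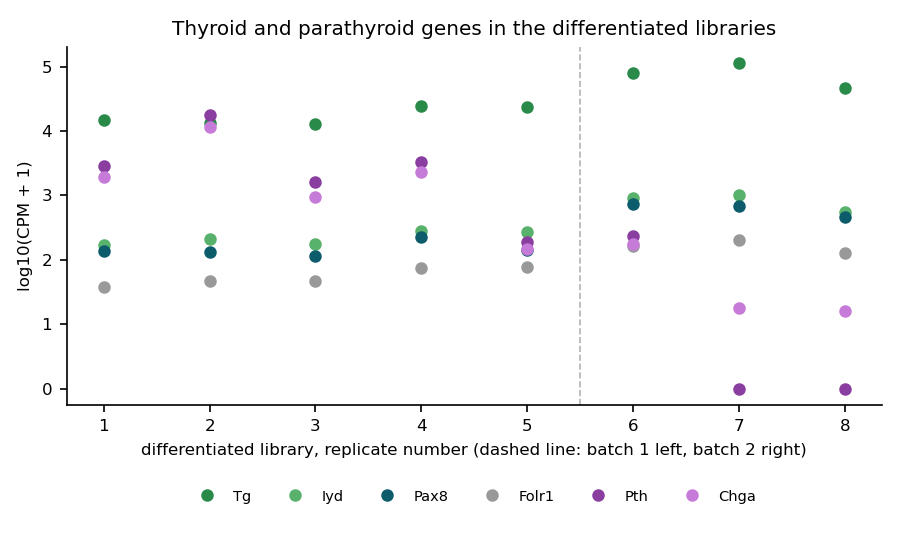
Expression as log10(CPM + 1) of 6 genes in differentiated replicates 1 to 8, with batch 1 left and batch 2 right of the dashed line. Iyd, Pax8 and Folr1 run parallel to Tg, whereas Pth and Chga are highest in replicate 2 and lowest in replicates 7 and 8.

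A further 126 genes outside these lists were set apart because they followed Tg (122 genes) or Pth (4 genes) across the 8 differentiated libraries with r of at least 0.9 and were at least 4-fold lower in BCAM low. All 126 were called lower, which the choice itself favours and which is not a result about them. All 122 Tg-like genes were higher in differentiated batch 2 than in batch 1, by a median of 3.57-fold, beside 4.46-fold for Tg. Since the libraries fall into 2 batches, likeness to Tg and a batch difference cannot be told apart. Of all tested genes, 477 reached r of 0.9 with Tg. Removing list members and set-apart genes left 1948 of the 2090 lower genes, of which 713 fell by at least 1.

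The Tg-like genes with the largest changes included Folr1, a folate receptor, at 36.9 to 205 CPM in differentiated cells and at most 1.29 CPM in BCAM low. It fell by 8.14 ± 0.51. Cdh16, a cadherin of thyroid and kidney, fell by 7.45 and Napsa, an aspartic protease, by 7.13. Ager fell by 7.66, Tnfrsf9 by 7.80 and Gjb1, a connexin, by 6.89. Slc14a2 fell by 6.68 and Slc26a10 fell by 6.43, with Pgf and Cybrd1 between them. Hp, haptoglobin, a member of the secretory list, was among the 4 Pth-like genes (r = 0.93). It was 423 to 903 CPM in differentiated batch 1, and 138, 21.8 and 48.1 CPM in batch 2.

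Among lower genes that were not set apart, Sod3, the extracellular superoxide dismutase, was 44.6 to 268 CPM in differentiated cells and at most 4.85 CPM in BCAM low. It fell by 6.27 ± 0.63, with -6.65 in batch 1 and -5.63 in batch 2. AU021092 was 153 to 264 CPM against 1.78 to 24.7 CPM and fell by 4.10 ± 0.29. Wfdc18 fell by 5.45. A2ml1, a protease inhibitor, was 164 to 6557 CPM against 19.9 to 142 CPM and fell by 4.62. Slc34a2, a phosphate transporter, was 364 CPM in differentiated replicate 6 and 18.5 to 63.0 CPM in the other differentiated libraries. Sftpb, a surfactant protein, was 286 CPM in the same library and at most 25.2 CPM in the others. Bex4, Nkd1 and Gdf15 had r of 0.83 to 0.87 with Tg, under the threshold, and fell by 6.26, 4.57 and 4.44.

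The difference between the subsets depended on batch for 1388 genes, 11.4% of those tested, with 832 differences higher in batch 2 and 556 lower. Leaving out differentiated replicate 7 gave 854 such genes and leaving out differentiated replicate 8 gave 1947. The largest shifts towards higher values in batch 2 included Pth, Chga, Bpifb1 (8.04), Trim29 (7.01) and Scgb1a1 (6.87). For Trim29 this came from differentiated batch 2, where it had no count, and the gene was called higher in each batch. Shifts towards lower values included Ces2e (-5.61), Col12a1 (-4.35), Afap1l2 (-4.32), Elovl7 (-4.29) and Emilin2 (-4.23). Afap1l2, an adaptor protein, was 16.7 to 33.9 CPM in differentiated batch 1 and 142, 169 and 83.9 CPM in batch 2, and Elovl7, a fatty acid elongase, and Emilin2, a matrix protein, had the same pattern. Col12a1, a fibril-associated collagen, was 29.4, 51.6 and 29.6 CPM in differentiated batch 2 and at most 9.18 CPM in all other libraries, and was not called in the pooled fit (-1.51, adjusted p = 0.052), though it was without BCAM low replicate 1 or 4 or differentiated replicate 1, 2 or 3 (adjusted p up to 0.0353). These 4 genes also had r of 0.93 to 0.99 with Tg.

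**Figure D5:**
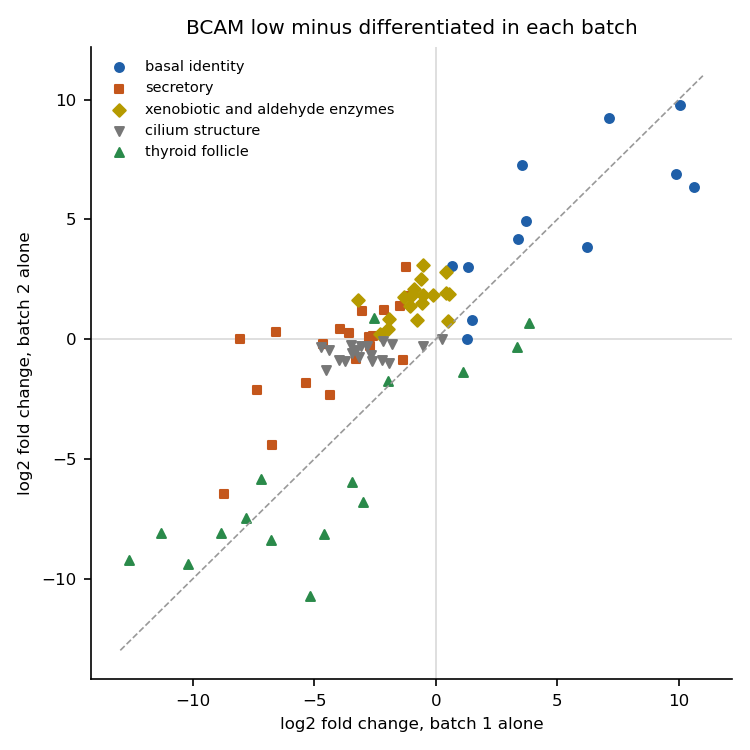
Log2 fold change of BCAM low minus differentiated for members of 5 gene lists, from batch 1 alone (horizontal) and from batch 2 alone (vertical), with a dashed line of equality. All but 1 of the 12 basal identity genes are above 0 in both batches. Most secretory and cilium structure genes lie below 0 in batch 1. In batch 2 they spread around or just below 0, apart from a few secretory genes, which reach from -6.46 (Tff2) to 3.03 (Chil4).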

How the data were processed

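The 24 deposited tables hold, for each transcript, an estimated count, a TPM value and an effective length, per the file headers. The submitters' processing notes name kallisto 46.1, Picard and the build GRCm39, without roles. Estimated counts deposited by the authors were summed per gene with GENCODE M21 (GRCm38), which matched 116374 of 117497 transcripts; the unmatched 1123 held 0.317 to 0.594% of the counts and were left out. Sums over 35855 genes were rounded and tested with edgeR 4.0.16 in R 4.3.3 (filterByExpr, TMM, robust quasi-likelihood F-test, Benjamini-Hochberg adjustment at 0.05). All 24 libraries shared the fit, with 1 mean for each group and an additive batch term, and the dependence on batch came from a second fit in which each subset had its own mean in either batch. Shares of counts are of the unscaled totals. TPM values, as deposited, were summed per gene for limma 3.58.1 on log2(TPM + 0.1) and log2(TPM + 1); DESeq2 1.42.0 and the other alternatives are in the closing section. No 2 libraries held identical values. The fit was also run on simulated counts without a batch effect, a run that cannot speak to differences that depend on batch.

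The groups compared, gene lists and tests were chosen with earlier results of these data known. The named genes are, for each list and direction, up to 4 called members with the largest change and the defining markers. Outside the lists they are the 10 largest called changes per direction (mean of at least 10 CPM, with one sign at all 8 replicate numbers, no predicted gene), and up to 5 genes per direction with 3 counts or fewer in 1 subset or with the largest dependence on batch. Other members of the lists were added after their values were seen. Some genes that the rule picked are left out of the text. The replicate numbers served to compare signs in this rule and were not a block in the model described above.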

Additional observations from a re-analysis of the deposited data

Results flagged for a closer look

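Among groups of 8 libraries with a mean of at least 10 CPM, 293 sets of values of the named genes and summed lists were examined for a library apart from the rest of its group, by a gap to its neighbour on log2(CPM + 1) that exceeded Dixon's 95% critical value for 8 libraries. This was found 20 times. Chance alone flags about 1 in 20 groups.

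BCAM low replicate 7 was apart for Pth (263.6 CPM, others at most 0.505), Chga (191.6 CPM, others at most 1.83), the parathyroid list (458.2 CPM, others at most 4.804) and the neuroendocrine list (207.1 CPM, others at most 22.2), which holds Chga. It was the lowest of its group for Krt14 (10.72 CPM) and Csf1r (1.286 CPM). BCAM low replicate 3 was the lowest for Aqp4 (4.118 CPM, others 38.1 to 121), Scnn1g (3.203 CPM) and Col17a1 (129.7 CPM). BCAM low replicate 5 was the lowest for Lyz2 (392.9 CPM, others 959 to 1969) and the immune list that contains it (448.7 CPM), and the highest for Dst (380.0 CPM). BCAM low replicate 6 was the lowest for Egfr (42.78 CPM) and the highest for the cilium structure list (1767 CPM, others at most 1129). BCAM low replicate 4 was the lowest for AU021092 (1.784 CPM).

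In the differentiated subset, replicate 6 was apart for Slc34a2 (364.3 CPM, others at most 63.0), replicate 5 for Slc12a2 (111.9 CPM), replicate 7 for Npy (59.30 CPM), replicate 8 for the ion and water transport list (5662 CPM, others at most 3237) and replicate 1 for the endothelial list (5.759 CPM, others at least 19.5).

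The difference between the subsets differed between batch 1 and batch 2 for 1388 genes by the test of that difference (11.4% of those tested).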

How the results depend on the processing

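The number of called genes stayed within 1.5 times of 4086 under DESeq2 size factors, the DESeq2 Wald test, limma-voom, both filters, the fit of the 16 libraries alone, no batch term, batch 1 alone, length offsets, and removal of the thyroid, parathyroid and C cell lists. A similar number does not mean the same genes. Length offsets kept 71.9% of the 4086 calls, and 25 had the opposite sign. Batch 1 alone kept 76.3%, the fit without a filter 81.4%, and the other fits named 84.7 to 99.5%. In batch 2 alone, which has 3 libraries a group, 2221 genes were called (1100 higher, 1121 lower). Of the 4086 calls, 39.5% were kept there and 192 had the opposite sign. Tested against a log2 change of 1, 665 passed (321 higher, 344 lower). limma on log2(TPM + 0.1) gave 4334 higher and 610 lower, and on log2(TPM + 1) 4275 and 647, with medians over all genes of 0.48 and 0.40; of the 4086 calls, 60.8 and 61.5% were kept and 371 and 368 had the opposite sign. The cause was not tested. With each library left out in turn the calls numbered 3761 to 4194, with 1855 to 2041 higher and 1905 to 2153 lower. The count of genes that depend on batch was 774 with length offsets, and 854 (without differentiated replicate 7) to 1947 (without differentiated replicate 8) with single libraries left out. At r of at least 0.8 the genes set apart numbered 179 in place of 126. With the replicate number as a block in place of batch, 4136 genes were called (2080 higher, 2056 lower), 3868 of them among the 4086. Deviations of same-numbered libraries from the means of their group and batch correlated at 0.043 to 0.193, at or under 0.1 in most. For 7 of 8 numbers the BCAM low library correlated best, within its batch, with the differentiated library of its own number. The numbers may therefore mark pairs, which the labels do not state. The p-values outside the block fit do not use such pairing. Under the block 8 of the 155 named calls were lost, among them Dnah5, Dnaic2 and Cyp2a5, and Pth was called (-10.42, adjusted p = 0.0089).

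Of 155 named genes called (not counting Icam1), 145 kept the call with every single library left out. In batch 2 alone the sign turned for Bpifa1 (1.16), Cyp2a5 (1.62), Cyp2b10 (0.40), Duoxa1 (-0.32), Fmo1 (0.19), H2-Aa (-0.34), Krt18 (0.18), Reg3g (0.26), Scgb1a1 (0.29), Scnn1g (0.44) and Spdef (0.12), and among genes not called for Bcam (-0.85), Itgb1 (-0.44), Pecam1 (-0.15) and Scgb3a2 (1.20). In batch 1 alone, and without differentiated 6, 7 and 8, which was chosen after seeing the data, it turned for Aldh3a1 (-0.55 and -0.61), Chil4 (-1.25 and -0.64), Col12a1 (0.25 and 0.036) and Cyp2f2 (-0.52 and -0.45). Without a batch term Bcam was -0.075 and Cyp2f2 -0.14, with single libraries left out Chil4 ran from -0.12 (without BCAM low replicate 5) to 2.27, and on log2(TPM + 0.1) Col1a1 was 0.39. Low counts limit the rare-cell markers, of which most were not tested.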
